A study of Mus musculus with 2 samples.

Results

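The contractile and myofibroblast genes described here are the 10 genes Acta2, Actg2, Tagln, Cnn1, Cnn2, Myl9, Tpm1, Tpm2, Cald1 and Myh11, which encode actins, actin-binding proteins, tropomyosins and myosin chains of smooth muscle and of myofibroblasts. They were chosen by gene name, and each of the 10 had a row among the 26082 genes measured in both libraries. Fibro-adipogenic progenitors (FAPs), stromal cells of skeletal muscle that can become adipocytes or matrix-producing fibroblasts, were sorted from the hind-limb muscles of wild-type C57BL/6 mice, bought at an age of 6 to 8 weeks. One culture was transfected with a plasmid that overexpresses TGFBR3, the type III receptor of TGF-β, and the other with the vector alone. By their labels both were under adipogenic differentiation, with insulin at 10 μg/ml, dexamethasone at 0.25 μM and IBMX at 0.5 mM in DMEM that held 20% FBS, to which cells were exposed for up to 3 days. The study's protocol also names a maintenance medium with insulin and less FBS, for which dexamethasone and IBMX are not listed. The day on which these libraries were taken is not given in the sources used here. RNA-seq gave 1 library per condition, so the spread between replicates is unknown and no test between conditions was made. How many animals or wells each library pools is not given in the sources used here.

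The counts of all genes summed to 62321027 in the library labelled TGFBR3 OE and to 83779203 in the library labelled control. Tgfbr3 itself had 16372 and 21245 counts, which correspond to 36.9 and 35.1 FPKM, with a log2 ratio of 0.07 (95% CI 0.04 to 0.10), below the median gene. The overexpressed gene thus did not stand out at the RNA level, and the RNA does not check which library carried the plasmid. Every direction given here is that of the labels, and each would turn if the labels were exchanged. FPKM is the count of a gene per length of its exons, scaled to the size of the library, and it permits comparison of levels between genes. Differences are given as the log2 ratio of (FPKM + 1), TGFBR3 OE over control, and 2-fold is a log2 ratio of 1 or −1. For the 95% CI, the counts of a gene in both libraries were pooled and the binomial share of one library was given exact Clopper-Pearson bounds, which were placed on the same scale. These bounds cover counting error only, and amplified reads are not independent molecules. A mean FPKM of 1 or more was found for 11213 genes, here called the tested genes. Among these, the median log2 ratio was 0.14, and centring, on the median of the 10626 genes with at least 1 FPKM in each library, lowers every log2 ratio by 0.13.

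Contraction in smooth muscle and in myofibroblasts rests on bundles of actin and myosin. α-Smooth muscle actin, encoded by Acta2, is the classical marker of the myofibroblast, a contractile fibroblast that lays down collagen in healing and fibrotic tissue. TGF-β and mechanical tension are known to induce these genes, largely through serum response factor (SRF) and its coactivators of the myocardin family, which act at a DNA element called the CArG box. FAPs are a known source of myofibroblasts in injured muscle.

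A window of 250 bases before to 50 bases after the transcription start was given for 7 of the 10 genes in the RefSeq sequences of GRCm38.p6, the build also called mm10. Tagln, Actg2 and Myh11 had no window there. A CArG box is CC, then 6 bases that are A or T, then GG, and its reverse complement has the same form, so that a search of one strand covers both. It was found in Cnn2 and Myl9, whereas 1.63% of the 32851 windows of all genes hold one. A CArG-like element, with 1 G or C allowed among the 6 central bases, was found at 2 places in Acta2 and at 1 in Myl9. Of all windows, 9.98% hold a box of either kind. The stretches are shown because SRF sites are the best known shared control element of these genes, and they are printed 5′ to 3′ on the strand of the gene with the elements in capitals. For Acta2, which lies within the longer gene model of GENCODE there, only 30 bases around each element are given, and for the other genes the stretch ends where the GENCODE gene begins.
Acta2, upstream element (chr19:34255438-34255467, minus strand): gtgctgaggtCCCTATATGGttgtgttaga
Acta2, downstream element (chr19:34255388-34255417, minus strand): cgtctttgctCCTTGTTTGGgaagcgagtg
Cnn2 (chr10:79988400-79988583, plus strand): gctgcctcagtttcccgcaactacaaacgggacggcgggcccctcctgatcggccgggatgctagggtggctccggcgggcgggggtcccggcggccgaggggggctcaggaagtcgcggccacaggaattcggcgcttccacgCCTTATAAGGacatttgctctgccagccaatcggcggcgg
Myl9 (chr2:156775264-156775419, plus strand): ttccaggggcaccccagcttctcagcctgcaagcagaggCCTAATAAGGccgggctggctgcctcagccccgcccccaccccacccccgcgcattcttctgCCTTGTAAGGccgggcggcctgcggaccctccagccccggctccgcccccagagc
No CArG box or CArG-like element lay in the windows of Cnn1, Tpm1, Tpm2 and Cald1. The MCAT motif, CATTCC or GGAATG on either strand, was found in the windows of Acta2, Tpm1 and Cald1, and 14.7% of all windows hold it. These matches describe the letters of the windows, and binding was not measured.

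Contractile genes were abundant in both libraries, and 7 of the 10 had an FPKM over 60 in each. None of the 10 was 2-fold higher and none was 2-fold lower in the library labelled TGFBR3 OE, where 3.14% and 1.03% of the tested genes were. The log2 ratio was below 0 for 7 genes and above 0 for 3, against 36.7% and 63.1% of the tested genes. Each of the 10 counting intervals excluded 0, but the share of the tested genes for which this holds was not computed. Such narrow intervals reflect high counts and do not set the members apart. The median over the 10 genes was −0.23, and the median of the tested genes was 0.14. At 1.5-fold, Tagln and Acta2 were lower and no member was higher, against 4.91% and 13.3% of the tested genes. Counting intervals lay wholly past 2-fold for none of the 10, and for 2.41% of the tested genes on the higher side and 0.687% on the lower. After centring, Tpm1 too was below 0, which made 8 of 10 against 48.7% of the tested genes, and with the trend in GC content removed it was again 8, against 49.9%. With the trend over mean FPKM removed, a step added after the values were seen, 5 were below 0 and 5 above. The share of the tested genes below 0 was not computed for that step. Actg2 joined Tagln and Acta2 at 1.5-fold lower after centring, where 8.09% of the tested genes were, and in plain ratios of FPKM, where 6.84% were. The group did not move as one: the log2 ratios ran from −0.78 in Tagln to 0.50 in Cald1.

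**Figure D1:**
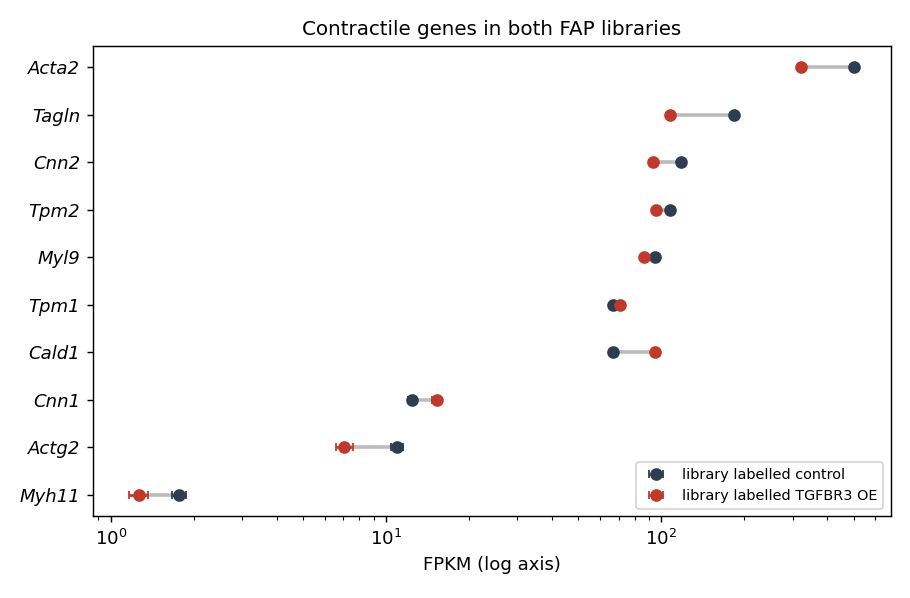
FPKM of the 10 contractile genes on a log axis in the library labelled control (dark points) and the library labelled TGFBR3 OE (red points), with exact 95% Poisson intervals of the counts as bars and a grey line joining each pair. Acta2 lies highest in both libraries and Myh11 lowest, and the red point is left of the dark one for 7 genes and right of it for Tpm1, Cald1 and Cnn1.

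Among the actins, Acta2 (ENSMUSG00000035783, chromosome 19 of mm10, 34241090 to 34255590, minus strand) stood at 499 FPKM in the library labelled control and at 323 FPKM in the library labelled TGFBR3 OE, from 101309 and 48048 counts. It was the most abundant of the 10 genes in both, at rank 79 of all genes in the first and 123 in the second. A log2 ratio of −0.63 (95% CI −0.64 to −0.61) resulted, and the level in the library labelled TGFBR3 OE was 64.6% of the other. Among the tested genes, 4.04% had a lower ratio. Actg2 (ENSMUSG00000059430, chromosome 6, 83512905 to 83536265, minus strand), the γ-actin of enteric smooth muscle, was far scarcer, at 10.96 and 7.06 FPKM from 1578 and 746 counts. The log2 ratio of Actg2 was −0.57 (95% CI −0.68 to −0.46), and it was −0.63 without the added 1. Both smooth muscle actins were therefore lower by nearly the same proportion, although their levels differed widely. Reads of actins could in principle be shared, since their coding sequences are similar, but only 1.39% of the 31-base words of Acta2 and 1.21% of those of Actg2 occur in transcripts of other genes.

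Tagln (ENSMUSG00000032085, chromosome 9, 45929619 to 45936058, minus strand) encodes transgelin or SM22α, an actin-binding protein that is an early marker of smooth muscle. It had 184 FPKM in the library labelled control and 107 FPKM in the library labelled TGFBR3 OE, from 33814 and 14448 counts. The log2 ratio of −0.78 (95% CI −0.80 to −0.75) was the lowest of the 10 genes, and 2.29% of the tested genes lay lower. Tagln remained the second most abundant member in both libraries. Its exons overlap those of Pcsk7 and of the antisense gene Gm48529 on the other strand. The study's methods name a stranded library kit, but whether the counting used strand is not given in the sources used here. The log2 ratio was 0.26 for Pcsk7 and −0.90 for Gm48529, whose levels were 3.12 and 6.69 FPKM.

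Calponins bind actin and restrain the myosin ATPase, and their members differed in direction. Cnn2 (ENSMUSG00000004665, chromosome 10, 79988584 to 79996062, plus strand), the form found in many non-muscle cells, had 118 FPKM in the library labelled control and 93.5 FPKM in the library labelled TGFBR3 OE, a log2 ratio of −0.33 (95% CI −0.36 to −0.30). Cnn1 (ENSMUSG00000001349, chromosome 9, 22099216 to 22109630, plus strand), the calponin of differentiated smooth muscle, had 12.4 and 15.3 FPKM from 3146 and 2834 counts, a log2 ratio of 0.28 (95% CI 0.21 to 0.34). The level of Cnn1 relative to Cnn2 was 0.105 in the library labelled control and 0.163 in the other, which does not depend on the scaling between the libraries. Cnn1 was thus higher where the smooth muscle genes Acta2, Actg2, Tagln and Myh11 were lower. Its ratio was not unusual, however, since 63.4% of the tested genes lay lower. It was 0.15 after centring and 0.18 with the trend over mean FPKM removed.

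Cald1 (ENSMUSG00000029761, chromosome 6, 34598500 to 34775473, plus strand) encodes caldesmon, which binds actin, myosin and tropomyosin. It stood at 66.7 FPKM in the library labelled control and at 94.6 FPKM in the library labelled TGFBR3 OE, from 74230 and 77279 counts. Its log2 ratio, 0.50 (95% CI 0.48 to 0.51), was the highest of the 10 genes, and 81.8% of the tested genes lay lower. Cald1 is also the member with the lowest GC content, 44.7% over its exons, and the tested genes in its bin of GC content had a median log2 ratio of 0.32. Subtracting the GC trend left a log2 ratio of 0.18, and subtracting the trend in exon length left 0.16. The part of GC content and length in this value was not tested. GENCODE lists 18 transcripts of Cald1, and the values per gene cannot separate its smooth muscle form from its non-muscle form.

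Tropomyosins lie along the actin filament and govern the access of myosin. Tpm2 (ENSMUSG00000028464, chromosome 4, 43514711 to 43523765, minus strand) had 107 FPKM in the library labelled control and 95.3 FPKM in the library labelled TGFBR3 OE, a log2 ratio of −0.17 (95% CI −0.20 to −0.15). Tpm1 (ENSMUSG00000032366, chromosome 9, 67022590 to 67049406, minus strand) had 66.7 and 70.8 FPKM, a log2 ratio of 0.08 (95% CI 0.06 to 0.10). The value of Tpm1 lay below the median of the tested genes, and it was −0.043 after centring, −0.055 with the GC trend removed and −0.11 with the length trend removed. Its direction therefore depended on the scaling. GENCODE lists 21 transcripts of Tpm1, of muscle and non-muscle kinds that the values per gene do not separate.

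Of the myosin subunits, Myl9 (ENSMUSG00000067818, chromosome 2, 156775420 to 156781658, plus strand), the regulatory light chain of smooth muscle, had 95.2 FPKM in the library labelled control and 86.6 FPKM in the library labelled TGFBR3 OE, a log2 ratio of −0.13 (95% CI −0.18 to −0.09). Myh11 (ENSMUSG00000018830, chromosome 16, 14194535 to 14291372, minus strand), the heavy chain that marks mature smooth muscle, was the scarcest member, at 1.77 and 1.26 FPKM from 1246 and 652 counts. The log2 ratio of Myh11 was −0.29 (95% CI −0.37 to −0.21), and it was −0.49 (95% CI −0.63 to −0.35) without the added 1, which understates the change of low genes. The light chain was thus abundant and little different, while the heavy chain of mature smooth muscle was near the lower limit of the tested genes in both libraries.

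**Figure D2:**
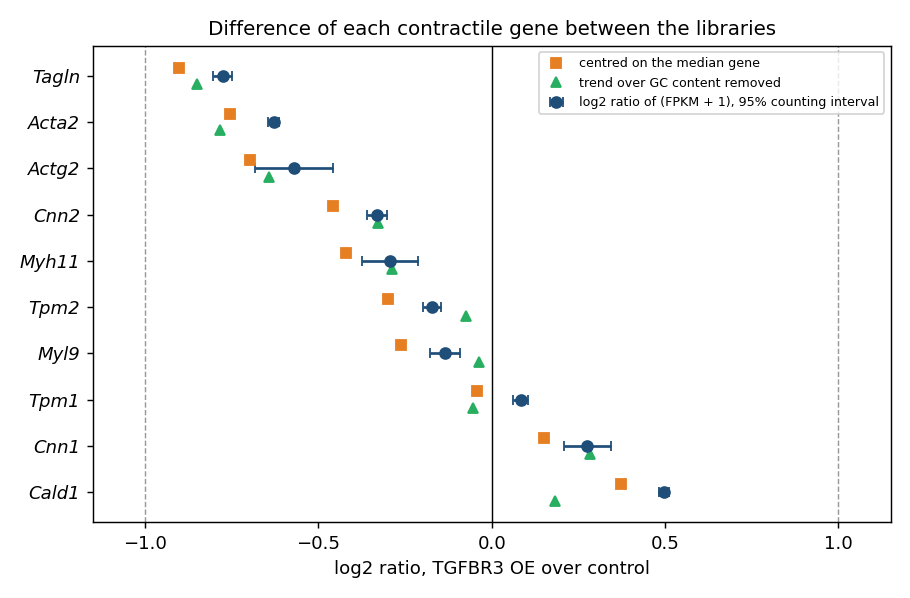
Log2 ratio of each contractile gene, TGFBR3 OE over control, with its 95% counting interval (blue circles and bars), after centring on the median gene (orange squares) and after the trend in GC content was subtracted (green triangles). Dashed lines mark 2-fold, which no member reached, and Tpm1 is the gene whose centred and GC-removed values lie on the other side of 0 from its main value.

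By level, the order in the library labelled control was Acta2, Tagln, Cnn2, Tpm2, Myl9, Tpm1, Cald1, Cnn1, Actg2 and Myh11. In the library labelled TGFBR3 OE the order was Acta2, Tagln, Tpm2, Cald1, Cnn2, Myl9, Tpm1, Cnn1, Actg2 and Myh11. Cald1 moved from the 7th to the 4th place. Counting intervals of neighbors overlapped for Tpm1 and Cald1 in the first library, and for Tpm2 with Cald1 and Cald1 with Cnn2 in the second. Acta2 held 43.0% of the summed FPKM of the 10 genes in the library labelled control and 36.1% in the other, and Tagln held 15.8% and 12.0%. Cald1 went from 5.74% to 10.6%. The summed FPKM of the 10 genes was 1163 and 894, so that the difference in the sum lay mainly in Acta2 and Tagln.

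**Figure D3:**
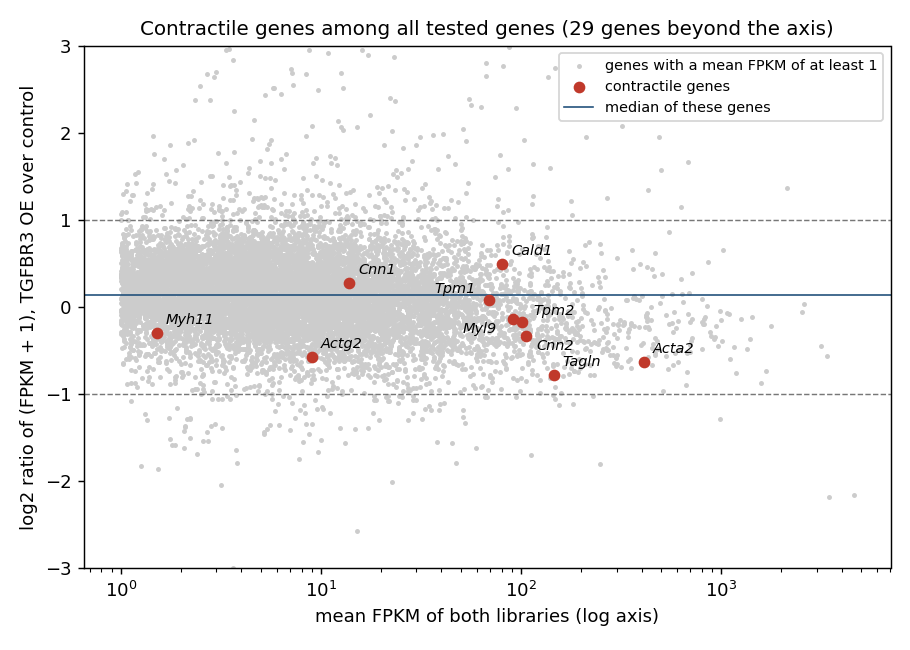
Mean FPKM of both libraries (log axis) against the log2 ratio of (FPKM + 1) for the 11213 tested genes (grey) and the 10 contractile genes (red, labelled), with the median of 0.14 as a blue line and 2-fold as dashed lines. The cloud bends below the blue line at high levels, where Acta2, Tagln, Cnn2, Tpm2 and Myl9 lie, and 29 genes fall beyond the vertical axis.

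High expression moved with lower ratios across all genes. When the tested genes were ordered by mean FPKM into 20 bins, the median log2 ratio was 0.23 in the bin that holds Myh11 and −0.18 in the highest bin, which holds Acta2, Tagln, Cnn2, Tpm2 and Myl9. With this trend removed, a step chosen after the values were seen, the log2 ratio was −0.59 for Tagln, −0.44 for Acta2 and −0.15 for Cnn2. The values of Tpm2 and Myl9 became 0.013 and 0.050. However, the highest bin spans mean FPKM from 86.4 to 4598, and Myl9 (90.9) and Tpm2 (101) lie near its lower edge. The bin below the highest had a median of 0.0053, and the ratios of Tpm2 (−0.17) and Myl9 (−0.13) lie under that value. Other cuts of the bins were not tried, so whether the signs of Tpm2 and Myl9 after removal would hold under them is not known. The median of this wide bin was subtracted from Acta2, Tagln and Cnn2 as well. Actg2, at a moderate level, was at −0.73, Myh11 at −0.52 and Cald1 at 0.49. The part of the level itself in these differences was not tested.

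Ratios to a related gene within the same library leave the scaling between libraries out. Acta2 relative to Actb, the β-actin of non-muscle cells, was 0.855 in the library labelled control and 0.632 in the library labelled TGFBR3 OE, a difference of −0.44 on the log2 scale (95% Wald interval of the counts −0.46 to −0.42). Relative to Actg1, the other cytoplasmic actin, the difference in Acta2 was −0.39 (−0.41 to −0.37). Smooth muscle actins were thus lower also in relation to the cytoplasmic actins, which were themselves lower, at log2 ratios of −0.19 for Actb and −0.24 for Actg1. Of the 31-base words, 23.5% in Actb and 40.2% in Actg1 occur in other transcripts, so that their own counts are less certain.

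Tagln relative to Tagln2, a transgelin of many cell types, was 1.61 and 0.999, a difference of −0.69 (−0.73 to −0.65). Myh11 relative to Myh9, a heavy chain of non-muscle myosin, differed by −0.55 (−0.69 to −0.42), and Cnn2 relative to Cnn3 by −0.48 (−0.53 to −0.44). For the tropomyosins the size of the difference depended on the relative chosen, and for Myl9 its sign did too. Tpm2 relative to Tpm4 was at −0.26 (−0.29 to −0.23), Myl9 relative to Myl12a at −0.051 (−0.099 to −0.0023) and Tpm1 relative to Tpm4 at −0.00091 (−0.028 to 0.026). Relative to Tpm3, however, Tpm2 was at −0.52 (−0.55 to −0.48) and Tpm1 at −0.26 (−0.29 to −0.23). Myl9 was at 0.14 relative to Myl12b (0.075 to 0.20) and at 0.52 relative to Myl6 (0.47 to 0.57). Cnn1 relative to Cnn3 was higher, by 0.15 (0.067 to 0.22). Sequence words that occur in other transcripts made up 26.99% in Tpm3, 25.96% in Myl12b and 17.65% in Myl12a. They made up 17.56% in Cnn3, 15.97% in Tpm4 and 11.42% in Myl6, against 1.145% in Tagln2 and 1.259% in Myh9. The exons of Myl12a also overlap those of Myl12b. Ratios to Tpm3, Tpm4, Myl12a, Myl12b, Myl6 and Cnn3 are therefore less certain than their counting intervals show. The ratio of Actg2 to Acta2 was 0.0220 in the library labelled control and 0.0219 in the other (difference −0.0040, −0.13 to 0.12), whereas the ratio of Cald1 to Acta2 went from 0.134 to 0.293.

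**Figure D4:**
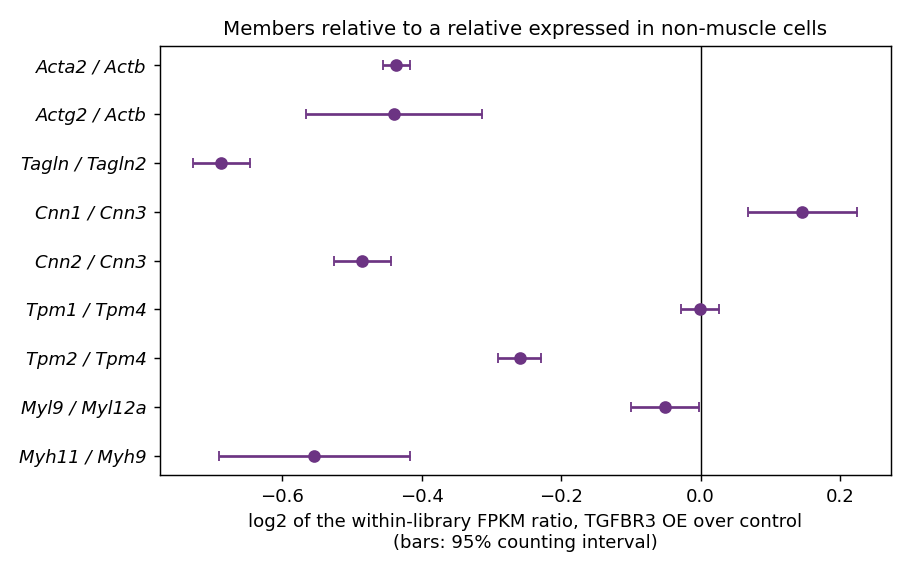
Log2 of the within-library FPKM ratio of a member to a relative expressed in non-muscle cells, TGFBR3 OE over control, with 95% counting intervals as bars. The bars cover counting error only and not reads that similar genes may share. Acta2, Actg2, Tagln, Cnn2, Tpm2 and Myh11 lie left of 0, Tpm1 lies on it, Myl9 lies just left of it and Cnn1 lies to the right.

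Other genes of the contractile apparatus were examined through lists written for this purpose. Of 31 genes of non-muscle actomyosin and cell adhesion, none was 2-fold changed, 12 were above 0 and 19 below, and their median log2 ratio was −0.08. The largest ratios of either sign were in Pdlim5 (0.79), a scaffold of the actin cytoskeleton, Myl6 (−0.65), the essential light chain of non-muscle and smooth muscle myosin, and Fermt2 (0.61), an integrin activator. Myl6 was at 133 and 84.1 FPKM, in contrast to the regulatory light chains Myl12a (−0.08) and Myl12b (−0.27). Pdlim5 was at 0.41 and Fermt2 at 0.33 with the GC trend removed. Tpm3 and Tpm4, tropomyosins of non-muscle cells, were at 0.34 and 0.09, Myh9 at 0.06 and Myh10 at −0.09.

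SRF and its coactivators, the factors upstream of the CArG box, were measured as transcripts too. For Srf itself, levels of 19.9 and 19.1 FPKM in the libraries labelled TGFBR3 OE and control gave a ratio of 0.06 (95% CI 0.0030 to 0.12). Its coactivators Mrtfa and Mrtfb were at −0.12 and 0.38. Myocd, the coactivator particular to cardiac and smooth muscle, was nearly silent, with 35 and 41 counts. Ankrd1, a nuclear ankyrin repeat protein and known target of the YAP coactivator, was past 2-fold, at 5.51 and 2.08 FPKM and a ratio of 1.08 (0.97 to 1.19). It was at 0.95 after centring and 0.80 with the GC trend removed. Genes listed with it as targets went both ways. Lats2 (0.50), Amotl2 (0.45), Vcl (0.21) and Fos (0.21) were higher, whereas Ccn2 (−0.48), Egr1 (−0.31) and Ccn1 (−0.29) were lower. The transcripts of SRF and its coactivators do not show their activity, which depends on transport into the nucleus.

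Myofibroblasts are also known by their matrix, and 20 genes of this kind were listed, of which 18 were tested. Their median log2 ratio was −0.29, with 3 above 0 and 15 below, and Fn1 (−1.28) and Col3a1 (−1.05) were 2-fold lower. Fibronectin, the product of Fn1, is the main adhesive protein of early scar, and type III collagen is a fibrillar collagen of it. Itga11 (−0.92), a collagen receptor of myofibroblasts, Col1a1 (−0.89) and Col5a1 (−0.79) were the next lowest. Tnc (0.67), Cdh2 (0.62) and Cdh11 (0.25) were higher, and Postn, a further myofibroblast marker, was at −0.07. The ratios of Acta2 and Tagln thus lay between those of the lowest collagens and those of Postn. Fn1 alone took 1.81% of all counts in the library labelled control and 0.734% in the other.

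**Figure D5:**
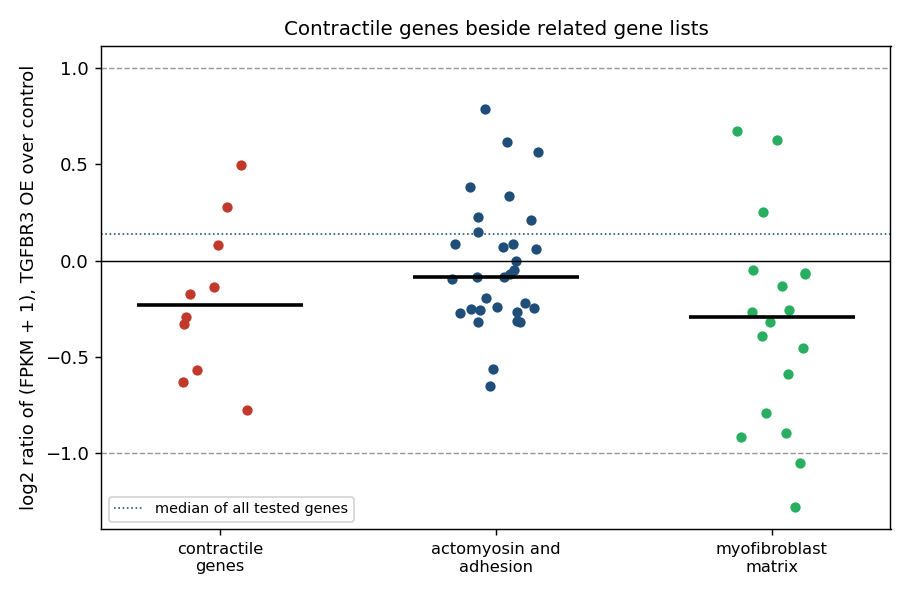
Log2 ratio of (FPKM + 1), TGFBR3 OE over control, of each tested gene in 3 lists, with the list median as a black bar, the median of all tested genes as a dotted line and 2-fold as dashed lines. Contractile genes, actomyosin and adhesion genes and myofibroblast matrix genes have medians below 0, at −0.23, −0.08 and −0.29.

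Smooth muscle and mural cells, which surround vessels and share these genes, were sought by other markers. In bulk RNA, fewer cells of a type and less RNA per cell cannot be told apart. Of 10 further smooth muscle markers, 5 were under 1 FPKM in both libraries, and the list summed to 31.8 FPKM in the library labelled TGFBR3 OE and 34.3 in the other, mostly from Smtn (20.2 in each). Lmod1, a smooth muscle leiomodin, was at 5.67 and 5.77 FPKM, and Sncg, which encodes γ-synuclein, was at 2.73 and 6.07 FPKM, a log2 ratio of −0.92 in the direction of Acta2 and Tagln. Des (0.28) and Synpo2 (0.36) went the other way at levels near 1 FPKM. Hhip had 29 and 0 counts. Of 10 mural markers, 9 had a row, and their sum of 257 and 417 FPKM came mainly from Ndufa4l2 (152 and 308, a log2 ratio of −1.02) and from Pdgfrb (88.9 and 94.3), which FAPs express too. Notch3 (6.34 and 4.85 FPKM), Cox4i2 (7.57 and 6.71) and Cspg4 (2.33 and 2.86) were also present, so that 2 of the 5 tested mural genes were above 0 and 3 below. Rgs5, a defining pericyte gene, was at 43 and 52 counts, Abcc9 at 12 and 0, and Kcnj8 at 8 and 0. The summed mural level moved in the same direction as Acta2 and Tagln, by way of Ndufa4l2.

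The labelled cell type was checked by 10 FAP markers, which summed to 1325 and 1118 FPKM. The higher sum came from Ly6a, which encodes Sca-1 and led with 1013 and 706 FPKM, while 4 of the 6 tested markers were below 0. Cd248, a stromal surface protein, was at 128 and 220 FPKM, a log2 ratio of −0.77, close to that of Tagln, and Cd34 was at −0.30. Pdgfra, the defining receptor of FAPs, had 30.5 and 32.6 FPKM. Dpp4, Pi16, Lum and Col15a1 were under 1 FPKM in both, and Dpp4 was at 0 counts in the library labelled control. Of 12 skeletal muscle genes, 6 had a row, and these summed to 2.04 and 1.20 FPKM. Endothelial genes, 8 in number, summed to 3.82 and 3.59 FPKM, with Tie1 at 0 counts in both. These close sums hold differences of both signs at low levels. Kdr (0.43 and 0.08 FPKM), Pecam1, Emcn and Cldn5 were higher in the library labelled TGFBR3 OE, and Cdh5 (0.58 and 0.84) was lower. Tek and Egfl7 had ratios below 0 with counting intervals that include 0. The part of other cell types in the contractile genes was not tested.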

How the data were processed

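Total RNA of both FAP cultures was purified by poly(A) selection and sequenced as paired reads of 150 nt. According to the study's methods, the authors used STAR for mapping to mm10 and FeatureCounts for counting, whereas the submitters' processing notes name cutadapt 1.9, HISAT2 2.2.1 and StringTie 2.1.6, and the annotation release is not given in the sources used here. The authors deposited raw counts per gene and FPKM values rounded to 2 decimals. For each of the 10 members both files held the same scaling of count to FPKM as for other genes.

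Log2 ratios of (FPKM + 1) were computed for all genes with a row, and a mean FPKM of 1 or more made a gene tested, which kept all 10 members. With 1 library per condition no count model was run. Coordinates, exon length, GC content and 31-base words came from GENCODE release M21 on mm10, which matched 99.7% of the gene identifiers. To remove a trend, the genes were put in 20 bins of the property and the median of each bin was subtracted. The members and lists were chosen with earlier results of these data known. Beyond the members, named genes were those past 2-fold in a list, the 3 next by size of ratio (a few more were added after their values were seen), the nearest relatives of members, SRF and its coactivators, and the highest or absent markers. Of the genes in the marker lists, 7 were not analysed here, and 1 further gene list is not reported here. Calculations were tested on simulated counts, with Python 3.11.15, numpy 2.4.6, pandas 2.3.3 and scipy 1.17.1.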

Additional observations from a re-analysis of the deposited data

How the results depend on the processing

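Under 8 alternatives (pseudocounts of 0.1 and 0, centring, CPM, FPKM rescaled without the 50 highest genes, and removal of the trends over GC content, exon length and mean FPKM), Acta2, Actg2, Tagln, Cnn2 and Myh11 stayed below 0 and Cnn1 and Cald1 above it. Tpm1 turned to −0.043 when centred, −0.055 with the GC trend removed and −0.11 with the length trend removed. Myl9 and Tpm2 turned to 0.050 and 0.013 with the trend over mean FPKM removed, the alternative added after the values were seen. No member was 2-fold changed under any of the 8. At 1.5-fold, 0 were higher throughout, and 2 were lower in the main setting and 3 (Tagln, Acta2 and Actg2) in 6 of the 8. The other alternatives gave 2 again, which with the trend over mean FPKM removed were Tagln and Actg2, without Acta2. Of the tested genes, 4.91% were 1.5-fold lower in the main setting, 8.09% after centring and 6.84% in plain ratios. This share was not computed for the other alternatives, so their counts of members have nothing to be read against. After centring, the median log2 ratio was −0.36 for the members, −0.21 for the actomyosin list and −0.42 for matrix genes. With the GC trend removed, the actomyosin and matrix lists were at −0.14 and −0.45, and with the length trend removed at −0.21 and −0.38. With the trend over mean FPKM removed, the members were at −0.067 and these lists at −0.0091 and −0.17. The actomyosin list was at −0.11 with FPKM rescaled. The cause of these shifts was not tested. No paired analysis was possible because each condition has 1 library, which also prevents leaving out a replicate. Depth did not limit the members, which had from 652 to 101309 counts, but counts near 0 of the marker genes are uncertain: 385 genes were at 0 in the library labelled control with more than 10 counts in the other, and 292 the reverse.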
